A study of Rattus norvegicus with 6 samples.

Results

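The genes described here carry glucose into the heart muscle cell, break it down to lactate, and store and release it as glycogen. A list of 36 genes was taken by symbol: 2 glucose transporters, the enzymes from hexokinase to lactate dehydrogenase, the 4 isoforms of phosphofructokinase 2, 2 lactate carriers and the genes of glycogen turnover. Of these, 34 had a tested probe set that the array annotation assigns to 1 gene, out of 14217 genes measured in that way. Each gene is represented by the brightest of its probe sets over the 6 arrays. Gapdh was read only by array control probe sets, which were not tested, and by a probe set with several symbols. Pkm was read only by a probe set with several symbols. Such probe sets were tested but assigned to no gene, so both genes are left out of the counts.

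The cells were heart muscle cells of newborn Wistar rats 1 to 2 days old, separated from fibroblasts on a Percoll gradient and measured on 6 Affymetrix arrays. The 3 groups of 2 arrays were untreated control cells, cells given phenylephrine, an agonist of the α1-adrenergic receptor, at 50 µmol/l, and cells under biaxial stretch to 112% for 24 h. Per the labels, stretched cells were grown on a silicone membrane coated with collagen for 36 h and then kept free of serum for 24 h before the stretch. How long phenylephrine was given is not stated in the sources used here, nor is the surface on which control and phenylephrine cells grew. RNA was combined from more than 1 cell preparation, and no label says whether 2 arrays of a group stem from separate cultures. A p-value here weighs a difference only against the spread between arrays, which may be technical.

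Glycolysis splits glucose into pyruvate, and lactate dehydrogenase turns pyruvate into lactate when it is not burned in mitochondria. Most steps are run by several genes whose products are isoforms with different tissue patterns and kinetics. The newborn heart relies on glycolysis and shifts towards fatty acids after birth, and the glucose transporter GLUT1 gives way to GLUT4 in the same period. Glycogen is built by glycogen synthase and branching enzyme and broken down by glycogen phosphorylase, which exists in muscle, brain and liver forms.

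Levels are log2 signals as deposited, and a change is the difference between 2 group means, given with its standard error (SE) from limma. A change was called when its p-value, adjusted over all 31042 probe sets, was under 0.05. The array medians lay between 8.30 and 8.33 log2, so that a probe set near 8.3 was at the middle of its array. The interquartile range of the arrays lay between 1.70 and 1.92 log2, lowest on phenylephrine replicate 2. On that array the median of the 18 hybridization controls was 9.31 log2, against 10.1 to 10.4 on the others. Levels of different probe sets are not comparable with each other, and n = 2 arrays per group throughout.

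The promoters of 5 members are shown because these genes had the 4 largest rises and the 1 fall under phenylephrine. Each sequence is the 250 bases before the gene's start in RefSeq, assembly GRCr8. The coordinates are chr10:55868936-55869185 on the plus strand for Eno3, chr10:106712078-106712327 on the plus strand for Slc16a3 and chr4:159267221-159267470 on the minus strand for Eno2. They are chr6:94476220-94476469 on the minus strand for Pygl and chr3:160071891-160072140 on the plus strand for Pygb. Sequences run 5′ to 3′ along the gene and end at the base before its start. Capitals mark matches, on either strand, to the motifs that were searched.
Eno3: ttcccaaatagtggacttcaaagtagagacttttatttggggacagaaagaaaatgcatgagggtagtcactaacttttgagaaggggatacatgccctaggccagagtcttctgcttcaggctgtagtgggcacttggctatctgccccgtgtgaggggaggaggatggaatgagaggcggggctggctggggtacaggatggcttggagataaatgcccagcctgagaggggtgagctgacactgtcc
Slc16a3: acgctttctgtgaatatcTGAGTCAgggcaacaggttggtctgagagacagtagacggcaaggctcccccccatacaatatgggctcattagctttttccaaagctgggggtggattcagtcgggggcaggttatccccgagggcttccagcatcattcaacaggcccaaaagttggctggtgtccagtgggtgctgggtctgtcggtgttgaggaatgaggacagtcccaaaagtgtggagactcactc
Eno2: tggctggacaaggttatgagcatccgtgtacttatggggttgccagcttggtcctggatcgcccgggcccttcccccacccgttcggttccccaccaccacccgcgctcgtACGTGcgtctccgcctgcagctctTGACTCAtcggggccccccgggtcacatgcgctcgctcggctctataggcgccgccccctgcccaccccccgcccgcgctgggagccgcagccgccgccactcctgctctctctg
Pygl: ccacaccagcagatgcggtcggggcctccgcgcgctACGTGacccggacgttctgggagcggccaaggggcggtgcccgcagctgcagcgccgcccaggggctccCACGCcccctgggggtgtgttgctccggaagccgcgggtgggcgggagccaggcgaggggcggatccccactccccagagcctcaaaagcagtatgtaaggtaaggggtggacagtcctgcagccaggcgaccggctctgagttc
Pygb: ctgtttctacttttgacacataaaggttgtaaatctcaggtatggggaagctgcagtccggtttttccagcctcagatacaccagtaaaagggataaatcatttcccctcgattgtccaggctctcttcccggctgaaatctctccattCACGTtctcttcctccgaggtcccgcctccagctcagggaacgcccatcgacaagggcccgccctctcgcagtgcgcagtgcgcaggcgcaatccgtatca

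The E-box CACGTG, which Myc and other bHLH factors bind, had a match in 5.59% of all 33469 promoter windows of this length. The hypoxia core ACGTG, which lies within the E-box, had one in 16.6%. The alternative hypoxia core GCGTG had one in 25.9%. The AP-1 motif TGANTCA had one in 6.34%. The cyclic AMP response element TGACGTCA had one in 1.59%. Promoters were found for 32 of the 34 members, and Slc2a4 and Pgk1 are named only. The Eno2 window holds the AP-1 motif and the first hypoxia core, the Slc16a3 window the AP-1 motif, the Pygl window both hypoxia cores and the Pygb window the first of them. The Eno3 window holds none of the 5, which says only that these letters are not in this window. Of 10 genes that rose under phenylephrine and had a promoter, 3 held the first hypoxia core (Eno2, Ldha and Pygl). Of 21 such genes that were not called, 12 held it. The second hypoxia core was in 5 of those 10 and 9 of those 21, and the AP-1 motif in 2 and 1. The E-box was in 1 (Ldha) and 3, and the cyclic AMP response element in 1 (Ldha) and 0. A gene was counted if any of its windows matched, and Eno1 had more than 1 window. The shares over all promoters are per window. These matches are descriptions of letters and carry no test.

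Under phenylephrine, 11 of the 34 members rose and 1 fell. The rises ran from 0.51 to 2.53 log2. The largest were in the muscle enolase Eno3 and the lactate exporter Slc16a3, at 2.53 ± 0.12 (SE) and 2.35 ± 0.16 log2. The fall was in Pygb, the brain form of glycogen phosphorylase. Members called made up 32.4% rising and 2.94% falling, beside 1.73% of all probe sets rising and 1.87% falling, or 2.41% and 2.36% with 1 probe set per gene. The members were chosen with earlier results of these data known, so their shares, here and below, are descriptions. The median change over the members was 0.29 log2, and 0.01 over all probe sets. In 24 of 34 members the change was above 0. All arrays given phenylephrine lay above all control arrays in 22 members and below them in 7, where the background shares are 21.5% and 22.1%. Of the 34 members, 20 had an unadjusted p under 0.05. These were RNA amounts per array in bulk culture, so that fewer cells of a type and less RNA per cell cannot be told apart.

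Without control replicate 2 the number of members that rose was 5, without control replicate 1 it was 6, and without either phenylephrine array it was 7. Without a stretch array it was 9 (replicate 1 left out) or 8 (replicate 2 left out). Eno3, Slc16a3, Eno2 and Pygl, which are 4 of the 12, passed in each of the 6 omissions. Each lone array is assumed to vary like the other groups in these fits. With quantile normalization 17 members rose and 4 fell, the 12 above among them.

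**Figure D1:**
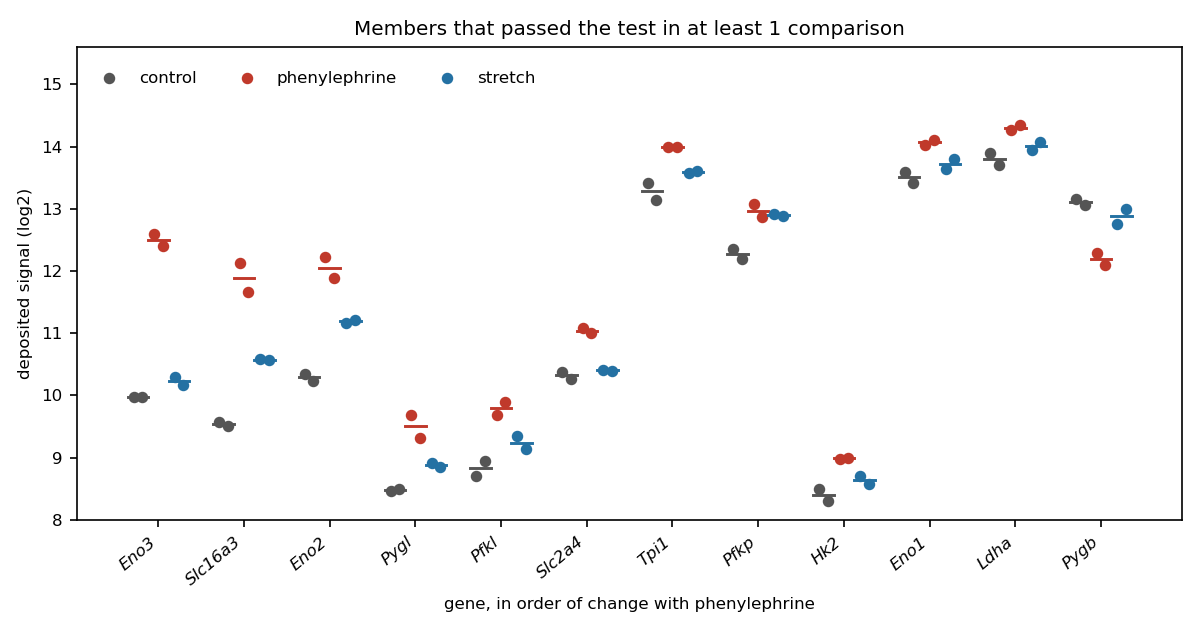
Log2 signal (vertical axis) of the members called in any comparison on each of the 6 arrays, by group (control, phenylephrine, stretch), with genes along the horizontal axis, each point 1 array and each bar a group mean. Eno3 lies at 9.97 on both control arrays, at 12.59 and 12.40 with phenylephrine, and at 10.30 and 10.16 with stretch, with the phenylephrine arrays highest.

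Enolase, which makes phosphoenolpyruvate, has 3 genes and all 3 rose under phenylephrine. Eno3, the form of skeletal and adult heart muscle, read 9.97 log2 on both control arrays, 12.59 and 12.40 with phenylephrine, and 10.30 and 10.16 with stretch. The phenylephrine arrays were high and the stretch arrays lay just above the control arrays. The change under phenylephrine was 5.76-fold (adjusted p = 0.000968). Eno2, the form first known from neurons, read 10.35 and 10.23 log2 in control cells, 12.22 and 11.88 with phenylephrine, and 11.17 and 11.21 with stretch. Here the 3 groups lay apart, with stretch in the middle. Eno2 rose by 1.76 ± 0.14 log2 with phenylephrine, or 3.40-fold (adjusted p = 0.00162). Eno1, the form found in most tissues, read 13.59 and 13.42 log2 in control cells and 14.03 and 14.10 with phenylephrine, a rise of 0.57 ± 0.11 log2 (adjusted p = 0.0303). It passed only without stretch replicate 1 among the 6 omissions, with adjusted p-values up to 0.182.

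Markers of skeletal muscle and of neurons, the cells in which Eno3 and Eno2 are best known, had list medians below the array median. The median of the list on an array was 7.61 to 7.75 log2 for skeletal muscle and 8.02 to 8.13 for Schwann cells and neurons. None of the 11 measured skeletal muscle markers was called in any comparison, and their median change with phenylephrine was 0.054 log2. Of the 11, the probe set of Myh1 was bright, at 12.97 to 13.48 log2, and the other 10 lay between 6.72 and 8.61 log2. Whether this probe set also reads other myosin genes was not tested. The summed signal of the 11, most of it from Myh1, was 13.60 and 13.39 log2 in control cells, 13.71 and 13.30 with phenylephrine, and 13.42 and 13.35 with stretch. None of the 10 Schwann cell and neuron markers was called either, and their median change was 0.036 log2. Their summed signal lay between 11.48 and 11.58 log2 on all 6 arrays. The part of such cells in the changes of Eno3 and Eno2 was not tested.

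Lactate leaves or enters the cell through the proton-linked carriers Slc16a1 (MCT1) and Slc16a3 (MCT4), the second of which is typical of cells that export lactate. Slc16a3 read 9.57 and 9.50 log2 in control cells, 12.12 and 11.66 with phenylephrine, and 10.58 and 10.57 with stretch. The groups did not overlap and stretch lay in the middle. The rise with phenylephrine was 5.11-fold (adjusted p = 0.00118). Slc16a1 read 12.49 and 12.26 log2 in control cells, 12.75 and 12.68 with phenylephrine, and 12.21 and 12.16 with stretch. Its change was 0.34 ± 0.12 log2 with phenylephrine (adjusted p = 0.193).

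Lactate dehydrogenase has 2 main subunits, Ldha, prominent in skeletal muscle, and Ldhb, prominent in heart. Ldha read 13.89 and 13.70 log2 in control cells, 14.27 and 14.34 with phenylephrine, and 13.95 and 14.07 with stretch. It rose by 0.51 ± 0.10 log2 with phenylephrine (adjusted p = 0.0366), and it passed in none of the 6 omissions, where adjusted p-values reached 0.207. Ldhb changed by -0.17 ± 0.11 log2 (adjusted p = 0.484), and its phenylephrine arrays, at 14.19 and 14.31, lay below its control arrays, at 14.46 and 14.39.

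Glucose enters the heart cell through Slc2a1 (GLUT1) and the insulin-sensitive Slc2a4 (GLUT4). Slc2a4 read 10.38 and 10.26 log2 in control cells, 11.08 and 11.00 with phenylephrine, and 10.41 and 10.39 with stretch. On this probe set the stretch arrays lay just above the control arrays. It rose by 0.73 ± 0.11 log2 (1.65-fold, adjusted p = 0.0137). A second probe set of Slc2a4 changed by 0.69 log2 (adjusted p = 0.0118). It read 9.68 and 9.60 log2 in control cells, 10.37 and 10.30 with phenylephrine, and 10.00 and 10.03 with stretch, so that stretch lay in the middle. Without control replicate 1 or 2, the adjusted p of the brighter set was 0.0971 or 0.179. Slc2a1 lay between 11.56 and 11.67 log2 on all 6 arrays, and its change was 0.01 ± 0.11 log2.

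Hexokinase traps glucose as glucose 6-phosphate, and Hk2 is the insulin-responsive form of muscle. Hk2 read 8.49 and 8.30 log2 in control cells, 8.98 and 9.00 with phenylephrine, and 8.71 and 8.58 with stretch, near the array median in control cells. It rose by 0.60 ± 0.09 log2 with phenylephrine (adjusted p = 0.0138), with adjusted p = 0.126 without control replicate 2 and 0.0557 without phenylephrine replicate 2. Hk1, the form found in most tissues, changed by 0.23 ± 0.10 log2 (adjusted p = 0.336). The next enzyme, Gpi, changed by 0.23 ± 0.11 log2 (adjusted p = 0.340).

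Phosphofructokinase 1 makes fructose 1,6-bisphosphate in a step that commits glucose to glycolysis, and 2 of its 3 genes rose with phenylephrine. The liver form Pfkl read 8.71 and 8.94 log2 in control cells, 9.69 and 9.90 with phenylephrine, and 9.34 and 9.14 with stretch. It rose by 0.97 ± 0.12 log2, or 1.96-fold (adjusted p = 0.00756), with adjusted p = 0.0648 without control replicate 1. The platelet form Pfkp read 12.36 and 12.19 log2 in control cells, 13.07 and 12.86 with phenylephrine, and 12.91 and 12.89 with stretch. Its stretch arrays lay between its phenylephrine arrays. It rose by 0.69 ± 0.12 log2 with phenylephrine (adjusted p = 0.0228), and among the 6 omissions it passed only without phenylephrine replicate 2. The muscle form Pfkm read 12.52 and 12.43 log2 in control cells and 12.08 on both phenylephrine arrays, a change of -0.40 ± 0.11 log2 (adjusted p = 0.111). Its dimmer probe sets changed by -0.16 and -0.01 log2 (adjusted p = 0.675 and 0.979), with overlapping arrays in both.

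Phosphofructokinase 2 sets the level of fructose 2,6-bisphosphate, an activator of phosphofructokinase 1. Its 4 genes, Pfkfb1 to Pfkfb4, changed by -0.04 to 0.04 log2 with phenylephrine and by 0.00 to 0.06 with stretch, and none was called. Their group means lay between 7.97 and 8.50 log2, close to the array median. Other probe sets of the same genes differed from this. A set of Pfkfb2 at 8.28 log2 in control cells fell by 0.42 log2 with phenylephrine (adjusted p = 0.0341), and a set of Pfkfb3 changed by 0.33 log2 (adjusted p = 0.0990).

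Aldolase, triosephosphate isomerase, phosphoglycerate kinase and phosphoglycerate mutase run the steps between phosphofructokinase and enolase. Tpi1 read 13.42 and 13.14 log2 in control cells, 14.00 on both phenylephrine arrays, and 13.58 and 13.60 with stretch. It rose by 0.72 ± 0.11 log2 with phenylephrine (adjusted p = 0.0156). Its adjusted p was 0.0868 without control replicate 2, and 0.0544 or 0.0681 without phenylephrine replicate 1 or 2. Pgam1 changed by 0.48 ± 0.11 log2 (adjusted p = 0.0720) and Pgk1 by 0.40 ± 0.12 (adjusted p = 0.139), and a second probe set of Pgk1 rose by 0.50 log2 (adjusted p = 0.0434). The muscle mutase Pgam2 changed by -0.26 ± 0.13 log2, the aldolase Aldoc by -0.24 ± 0.12 and Aldoa, the muscle aldolase, by 0.18 ± 0.11, none of them called. The 3 array control probe sets of Gapdh were left out of the tests. Their changes with phenylephrine were 0.39 at the 3′ end, 0.56 in the middle and 0.59 log2 at the 5′ end of the transcript. The tested probe set that Gapdh shares with another symbol changed by 0.45 ± 0.12 log2 (adjusted p = 0.092) and was not called. The tested probe set that Pkm shares with another symbol rose by 0.55 ± 0.10 log2 (adjusted p = 0.0273). Neither is counted among the members.

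Across the glycolytic enzymes from hexokinase to lactate dehydrogenase, 8 of 17 rose with phenylephrine, none fell, and the median change was 0.48 log2. Gapdh and Pkm are not among these 17. Of the 4 transporters 2 rose. Of the 9 glycogen genes 1 rose and 1 fell. Over all genes, with 1 probe set per gene, 2.41% rose and 2.36% fell with phenylephrine.

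**Figure D2:**
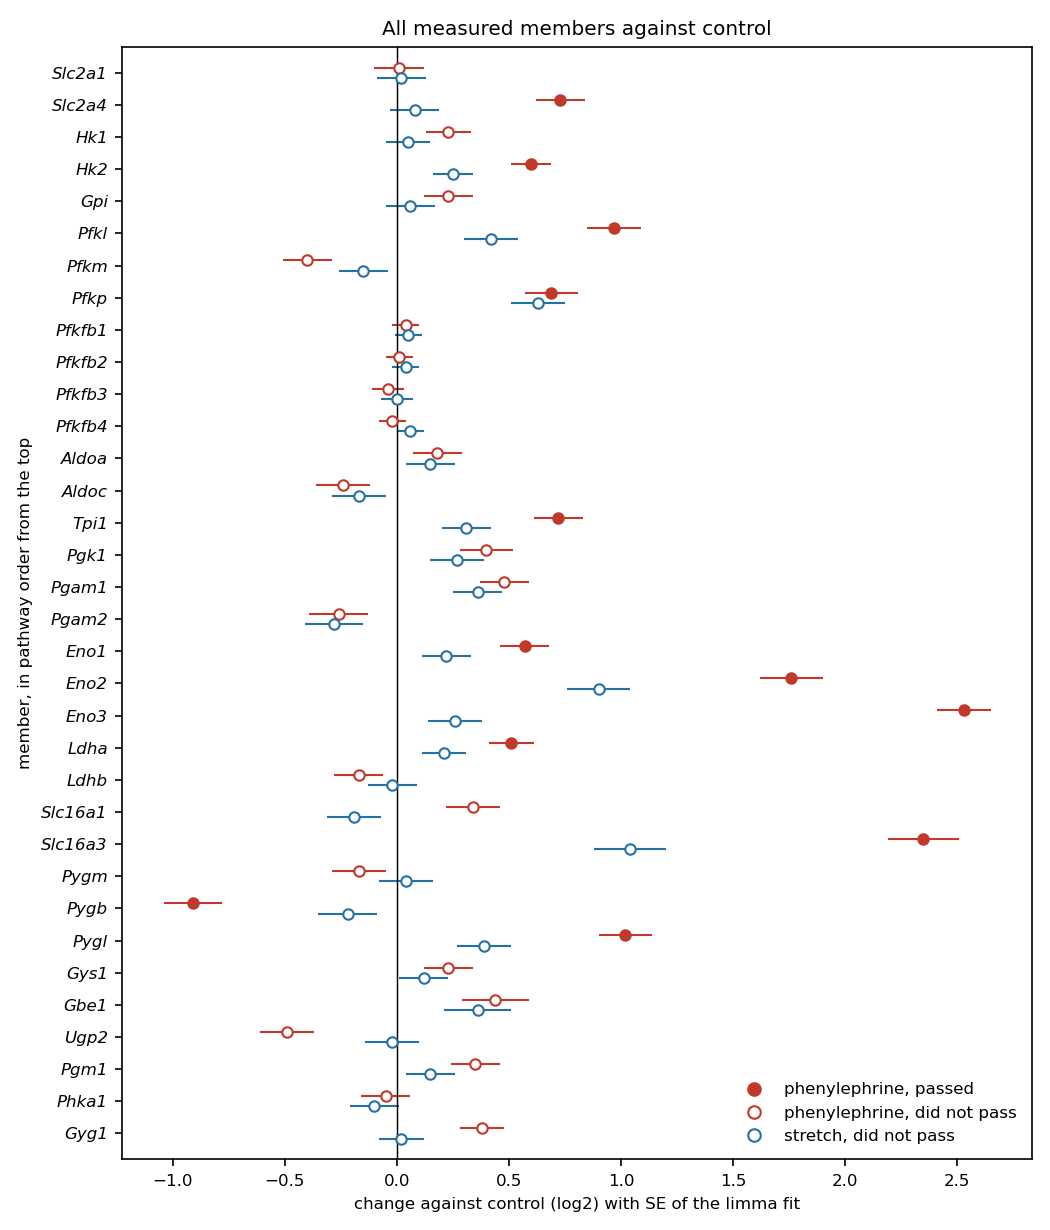
Log2 change of all 34 members against control (horizontal axis) for phenylephrine and for stretch, with each point the change and each bar its SE, and the members grouped by role. Phenylephrine changes run from -0.91 to 2.53 and stretch changes from -0.28 to 1.04 log2.

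Glycogen phosphorylase releases glucose 1-phosphate from glycogen, and of its 3 genes 1 rose and 1 fell with phenylephrine. The liver form Pygl read 8.47 and 8.50 log2 in control cells, 9.68 and 9.32 with phenylephrine, and 8.91 and 8.85 with stretch, near the array median in control cells. It rose by 1.02 ± 0.12 log2, or 2.02-fold (adjusted p = 0.00563). Pygb read 13.15 and 13.06 log2 in control cells, 12.29 and 12.10 with phenylephrine, and 12.76 and 13.00 with stretch. It fell by 0.91 ± 0.13 log2, or 1.88-fold (adjusted p = 0.0105), with adjusted p = 0.0777 and 0.0652 without control replicate 1 and 2. The muscle form Pygm changed by -0.17 ± 0.12 log2 (adjusted p = 0.554). Among the genes of synthesis, Ugp2, which makes UDP-glucose, changed by -0.49 ± 0.12 log2 (adjusted p = 0.0845), the branching enzyme Gbe1 by 0.44 ± 0.15 (adjusted p = 0.188), the primer glycogenin Gyg1 by 0.38 ± 0.10 (adjusted p = 0.0945) and glycogen synthase Gys1 by 0.23 ± 0.11 (adjusted p = 0.332). Pgm1, which interconverts glucose 1- and 6-phosphate, changed by 0.35 ± 0.11 log2 (adjusted p = 0.159), and another of its probe sets rose by 0.68 log2 (adjusted p = 0.0403). The phosphorylase kinase subunit Phka1 changed by -0.05 ± 0.11 log2.

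Within each step, the log2 ratio of 2 isoforms was followed from array to array, relative to its control mean. With 2 arrays on each side an exact two-sided permutation p is at least 0.333, so the ratios are descriptions. With phenylephrine the ratio of Slc16a3 to Slc16a1 was higher by 2.01, Eno3 to Eno1 by 1.96, Pfkl to Pfkm by 1.37, Eno2 to Eno1 by 1.20, Pygl to Pygm by 1.19 and Pfkp to Pfkm by 1.09. Hk2 to Hk1 was higher by 0.37. The ratio of Slc2a1 to Slc2a4 changed by -0.72, Ldhb to Ldha by -0.68, Pgam2 to Pgam1 by -0.74, Pygb to Pygm by -0.74 and Aldoc to Aldoa by -0.41. The phenylephrine arrays lay above both control arrays in 7 of the 15 pairs and below them in 8, including the Pfkfb pairs, where the differences were at most 0.08 in size. Among single probe sets 21.5% lay above and 22.1% below in this comparison. Single probe sets are not a like background for ratios within an array. Pfkfb1, Pfkm, Eno1 and Pygm each stand in more than 1 pair, so the pairs are not separate observations.

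**Figure D3:**
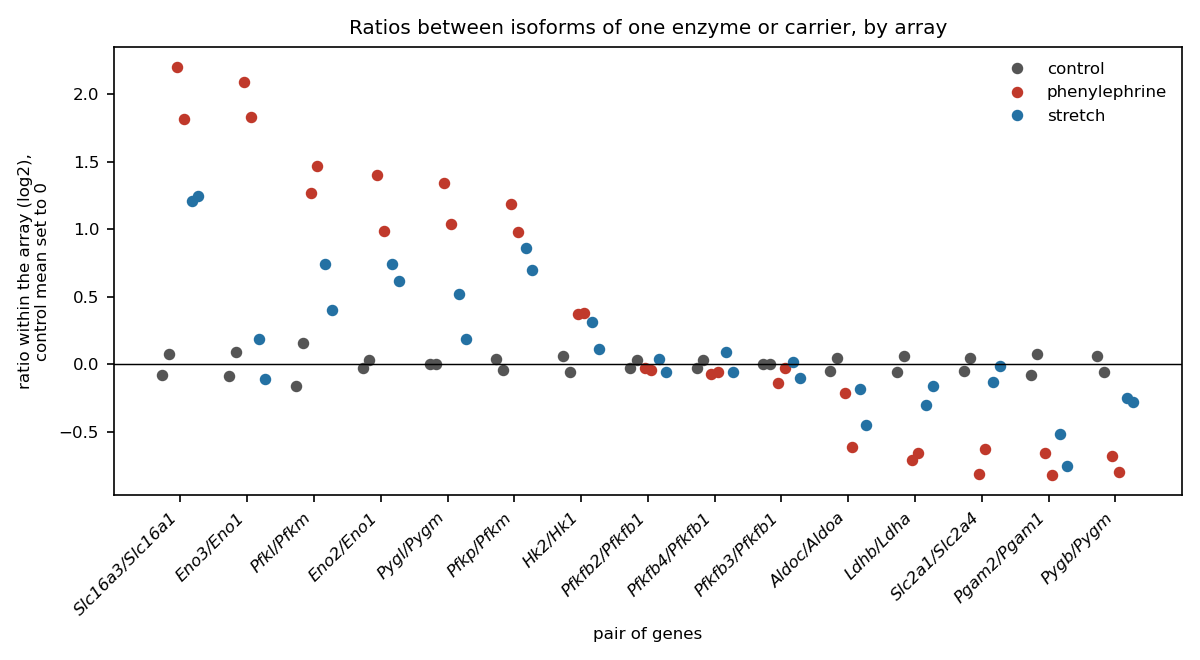
Log2 ratio of 2 isoforms of the same step minus its control mean (vertical axis) for each pair of genes (horizontal axis), with each point 1 array of the control, phenylephrine or stretch group. The ratio of Slc16a3 to Slc16a1 lies at 2.20 and 1.82 with phenylephrine and at 1.21 and 1.25 with stretch, while Eno3 to Eno1 lies at 2.09 and 1.83 with phenylephrine and at 0.19 and -0.11 with stretch.

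Under stretch no member passed the threshold against control, and the changes ran from -0.28 to 1.04 log2. In this limma fit 0 of 34 members were called and 9 had an unadjusted p under 0.05, where 0.306% of all probe sets rose and 0.0387% fell (0.457% and 0.0633% with 1 probe set per gene). The median change was 0.07 log2 (0.01 over all probe sets), with 26 of 34 above 0. Stretch arrays lay above both control arrays in 18 members, where the background share is 19.4%, and below in 6, where it is 16.5%. With quantile normalization 3 members rose. This comparison shares its control arrays with the comparison of phenylephrine against control.

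Slc16a3 had the smallest adjusted p of the members, with a change of 1.04 ± 0.16 log2, or 2.06-fold (adjusted p = 0.0519, from 8.16e-05 to 0.417 over the alternatives tried). Eno2 changed by 0.90 ± 0.14 log2, or 1.86-fold (adjusted p = 0.0609, from 0.000201 to 0.538). In both genes both stretch arrays lay above both control arrays. With each array centred on its median, a shift of at most 0.024 log2, both passed (adjusted p = 0.0335 and 0.0399), and without phenylephrine replicate 1 both passed too (0.0111 and 0.0240), as they did without phenylephrine replicate 2 (0.0115 and 0.0241). Pfkp changed by 0.63 ± 0.12 log2 (adjusted p = 0.125), Pfkl by 0.42 ± 0.12 (0.495), Pygl by 0.39 ± 0.12 (0.523) and Pgam1 by 0.36 ± 0.11 (0.586). Eno3 changed by 0.26 ± 0.12 log2 (adjusted p = 0.955) and Slc2a4 by 0.08 ± 0.11, while its second probe set changed by 0.37 ± 0.10 (adjusted p = 0.396).

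The isoform ratios under stretch were higher for Slc16a3 to Slc16a1 by 1.23, Pfkp to Pfkm by 0.78, Eno2 to Eno1 by 0.68, Pfkl to Pfkm by 0.57 and Pygl to Pygm by 0.36. Pgam2 to Pgam1 changed by -0.64 and Aldoc to Aldoa by -0.32. Eno3 to Eno1 changed by 0.04, and its stretch and control arrays overlapped. The stretch arrays lay above both control arrays in 6 of the 15 pairs and below them in 4, where 19.4% and 16.5% of single probe sets did. Here too some pairs share a gene, and single probe sets are not a like background.

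Stretch and phenylephrine were compared directly, with the same arrays of both groups as above. In this comparison 4 members were lower under stretch and none was higher, 11.8% of 34 beside 0.612% of all probe sets lower and 0.718% higher (0.837% and 0.999% with 1 probe set per gene). Stretch arrays lay below both phenylephrine arrays in 18 members and above them in 6, where the background shares are 17.2% and 21.6%. The median difference was -0.12 log2, and 14 members had an unadjusted p under 0.05. Eno3 was lower by -2.27 ± 0.12 log2 (4.81-fold, adjusted p = 0.000683), and it passed in each of the 6 omissions. Slc16a3 was lower by -1.32 ± 0.16 log2 (2.49-fold, adjusted p = 0.0113), Eno2 by -0.86 ± 0.14 (1.82-fold, 0.0335) and Slc2a4 by -0.64 ± 0.11 (1.56-fold, 0.0381). Slc16a3 had adjusted p = 0.0944 and 0.0902 without stretch replicate 1 and 2. Eno2 failed without each control or stretch array, with adjusted p up to 0.239, and Slc2a4 failed in all 6 omissions, with adjusted p up to 0.313. The second probe set of Slc2a4 differed by -0.32 log2 between stretch and phenylephrine (adjusted p = 0.220), which was not called. Pygb, at 0.69 ± 0.13 log2 higher under stretch (adjusted p = 0.0502), and Pygl, at -0.62 ± 0.12 (adjusted p = 0.0588), lay just outside the threshold. With quantile normalization 10 members were lower and 2 higher. Pfkp differed by -0.06 ± 0.12 log2 between the stimuli.

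Of the neighbouring genes, which are not members, the branches and alternative carriers are given by list, with the median change of all probe sets at 0.01 log2. With 1 probe set per gene, 2.41% of all genes rose and 2.36% fell with phenylephrine, and 0.999% were higher under stretch than with phenylephrine. Sord, which makes fructose from sorbitol, fell by 1.10 ± 0.12 log2 with phenylephrine (adjusted p = 0.00488), 1 of 12 measured genes of the hexosamine, polyol and glycerol phosphate branches (median change -0.12). The carrier Slc16a7 (MCT2) fell by 0.76 ± 0.09 log2 (adjusted p = 0.00521) and Slc16a10, of the same gene family, by 0.73 ± 0.14 (0.0367). They were 2 of 11 listed genes of other Slc16 carriers, pyruvate carriers and chaperones. Slc16a7 was dim, with group means of 8.22 log2 in control cells and 7.47 with phenylephrine, below the array medians. Pgm2l1 fell by 0.48 ± 0.08 log2 (0.0173), 1 of 21 other glycogen genes, and Galm, which interconverts glucose anomers, by 0.73 ± 0.16 (0.0498), 1 of 13 other isoforms and branch enzymes. None of 11 pentose phosphate genes (largest change Rpe, 0.34), 6 gluconeogenesis genes (Pck2, 0.34) or 11 other hexose transporters (Slc37a4, -0.39) was called. With stretch none of these 7 lists held a called gene, and between the stimuli Sord (0.98 ± 0.12 log2), Pgm2l1 (0.61 ± 0.08) and Slc16a7 (0.56 ± 0.09) were higher under stretch (adjusted p = 0.0142, 0.0140 and 0.0295).

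Of 39 regulators of glucose uptake and use, 1 rose and 7 fell with phenylephrine, with a median change of -0.048 log2. Over all genes, with 1 probe set per gene, 2.41% rose and 2.36% fell with phenylephrine, and 0.457% and 0.0633% with stretch. Between the stimuli 0.999% of all genes were higher and 0.837% lower under stretch. Egln3, a prolyl hydroxylase that marks HIF proteins for destruction and whose gene is itself a HIF target, rose by 1.36 ± 0.11 log2 (adjusted p = 0.00201). Pdk2 and Pdk4, kinases that shut pyruvate dehydrogenase, fell by 1.17 ± 0.14 (0.00672) and 1.04 ± 0.14 log2 (0.00978), and Epas1 (HIF2α) fell by 0.97 ± 0.18 (0.0313). With stretch, Egln3 rose by 0.78 ± 0.11 (0.0457) and Myc by 0.90 ± 0.11 log2 (0.0223), and none fell. Between the stimuli 4 of the 39 were higher under stretch, among them Epas1 by 1.02 ± 0.18 (0.0451), Myc by 0.97 ± 0.11 (0.00958) and Pdk2 by 0.91 ± 0.14 log2 (0.0304), and Prkag2, a subunit of AMP-activated kinase, was lower (-0.94 ± 0.15, 0.0326).

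Defining heart muscle markers were bright on every array. Tnnt2 lay between 14.48 and 14.81 log2 on all arrays. The summed signal of 17 heart muscle markers was 18.22 and 18.11 log2 in control, 18.30 and 18.43 in phenylephrine, and 18.11 and 18.32 in stretch arrays, so that both phenylephrine arrays lay above both control arrays. With phenylephrine 13 of these 17 changed by more than 0, with a median of 0.19 log2, and 2 rose (Nppa by 1.05 and Myl4 by 0.99 log2). In the same arrays 4 of 16 fibroblast markers fell (Dpt by 0.96 log2 the most, median change of the list -0.31), with summed signals of 16.29 and 16.23 log2 in control, 16.06 and 16.03 in phenylephrine, and 16.07 and 16.19 in stretch arrays. Endothelial markers fell in 2 of 10, with summed signals of 12.27 and 12.26, 12.03 and 11.98, and 12.16 and 12.14 log2. Smooth muscle and pericyte markers rose in 4 of 12, Cnn1 by 2.55 log2, Cspg4, Acta2 and Mcam, and 1 fell (Abcc9, -1.12 log2). The median change of the 12 was 0.022 log2, with 6 above 0 and 6 below. Their summed signals were 14.54 and 14.48, 14.82 and 14.80, and 14.67 and 14.75 log2. The brightest of the 12 was Des, with group means of 13.42 log2 in control cells, 13.84 with phenylephrine and 13.71 with stretch. With stretch Cnn1 alone of the 12 rose, by 1.45 log2. Leukocyte markers fell in 1 of 12 with phenylephrine, and none of 5 red blood cell markers was called. Over all genes, with 1 probe set per gene, 2.41% rose and 2.36% fell with phenylephrine, and 0.457% rose with stretch. The part of these cell types in the members' changes was not tested.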

How the data were processed

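RNA of cultured newborn rat heart muscle cells was measured on 6 arrays, 2 per group. The deposited values were taken as log2 signals per probe set because of their range. How the authors summarised, background-corrected and normalized them is not stated in the sources used here, and they were kept as they are. Of 31099 probe sets, 57 array controls were left out. Group means over all 6 arrays were fitted by limma 3.58.1 (lmFit, eBayes with trend) in R 4.3.3 for 3 comparisons, with two-sided tests and Benjamini-Hochberg adjustment over 31042 probe sets (residual degrees of freedom 3, prior 4.8). Adjusted p-values come from this fit unless an alternative is named beside them. It was tested on simulated data, where the mean sizes of the changes were recovered and the smallest changes were not called. The simulated noise was drawn independently for each array, while in the data the same-numbered arrays deviated together. The simulation therefore does not show how the fit behaves on arrays that vary together. Gene names come from the platform annotation, from probe sets with 1 symbol. Named genes were all members, with values per array for those called in any comparison and for some of their uncalled isoforms (Slc16a1, Ldhb, Pfkm), and from each list of related genes up to 4 called genes with the largest change, or else the gene with the largest change. The uncalled isoforms, Tnnt2, Myh1 and Des were chosen after their values were seen. The members and lists were chosen with earlier results of these data known. Alternatives were a replicate block, quantile normalization, median centring, leaving out dim probe sets, no variance trend, only the 4 arrays compared, other probe sets, and leaving out each array. The number of arrays limits the precision.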

Additional observations from a re-analysis of the deposited data

How the results depend on the processing

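Of 1257 values of single members under the alternatives, 1157 stayed on the same side of the threshold, 43 no longer passed, 56 newly passed and 1 reversed with a call, while 49 changed sign without a call in either fit. The reversed value was Pfkfb2 with phenylephrine, -0.42 log2 with its second brightest probe set (adjusted p = 0.0341), and the ratio of Pfkfb3 to Pfkfb1 turned to 0.28 with the second brightest probe set. The isoform ratio alternatives were chosen after seeing the data, and 11 genes have a second probe set. Probe sets called with phenylephrine numbered 1117, and 5384 with the replicate block, 2790 with quantile normalization and 661 with only the 4 arrays compared. The members that rose were 17 with the block and 17 with quantile normalization, and those that fell 3 with the block, 4 with quantile normalization, 2 with no variance trend and 2 with second brightest probe sets. All 12 calls were kept under the block and under quantile normalization. With stretch against control, 107 probe sets became 1028 with the block and 386 with quantile normalization, and the members that rose were 5 with the block (Slc16a3, Eno2, Pfkp, Pfkl and Pygl), 3 with quantile normalization, 2 with median centring and 2 with only the 4 arrays compared. The share of rises among calls was 88.8%, and 69.9% with the block and 72.5% with quantile normalization. With stretch against phenylephrine, 413 probe sets became 3734 with the block, 1527 with quantile normalization and 230 with only 4 arrays. There 9 members were lower with the block, 10 with quantile normalization and 2 with only the 4 arrays compared. Higher members were 2 with the block, 2 with quantile normalization, and 1 each with median centring, with dim probe sets left out and with no trend. All 4 calls were kept under the block and quantile normalization. The share of higher probe sets was 54%, and 65.3% with the block. The cause was not tested.

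Leaving out 1 array at a time gave 189 to 1249 probe sets called with phenylephrine, with 5 to 9 members rising and 0 to 1 falling. It gave 26 to 112 with stretch against control, with 0 to 2 members rising and 0 to 0 falling, and 51 to 473 with stretch against phenylephrine, with 0 to 0 members higher and 1 to 4 lower. With phenylephrine 28.9% of the calls were rises without phenylephrine replicate 1 and 71% without replicate 2. The replicate block rests on shared replicate numbers only, since the labels state no pairing and each comparison has 2 pairs. The replicate 1 arrays of 2 groups deviated together across 31042 probe sets, with correlations of 0.487, 0.673 and 0.534 for control with phenylephrine, control with stretch and phenylephrine with stretch. That is a hint from the data, and the interquartile range was also wider on every replicate 1 array.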
